A study of Mus musculus with 12 samples.

Results

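Expression of 10 genes for enzymes that oxidize choline to glycine, cleave glycine and move folate-bound carbon units was examined in the livers of 12 ob/ob mice. The genes were *Chdh*, *Aldh7a1*, *Dmgdh*, *Sardh*, *Pipox*, *Gldc*, *Amt*, *Shmt1*, *Shmt2* and *Mthfd1*, out of 56205 genes in the count table. They were chosen by name as enzymes of these pathways, with the difference between the groups already known and *Pipox* picked out as strongly lowered. The contrast between the groups is therefore a description for these 10 genes, with no test. All 10 passed the low-count filter, as did 13416 genes in all.

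RNA from whole livers was sequenced as poly(A)-selected libraries, each titled as a separate mouse. All mice were ob/ob animals (B6.Cg-Lep ob/J), which lack leptin in every tissue and become obese on chow, and the study's methods give an age of 8 to 10 weeks at the start of treatment. In the OBOB_FLO group (FLO, n = 6) the mice were fed standard chow. The OBOB_Fibrotic group (fibrotic, n = 6) was fed the same chow and given DL ethionine, an ethyl analogue of methionine that is toxic to the liver. A label and the design text put ethionine at 0.165% in drinking water for 2 weeks, a second label names an injection of 0.15%, and the study's methods give 0.15% in drinking water for 1 week, so that dose and duration are not settled. Only males are stated for both groups, yet FLO replicate 3 held 3773 counts of *Xist*, the RNA of the inactive X chromosome, against 0 to 4 in the other 11 libraries, and the log2 fold change without this library is given below for each of the 10 genes.

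The liver is the main site of choline oxidation. Choline is oxidized in mitochondria to betaine aldehyde and then to betaine, which gives a methyl group to homocysteine and becomes dimethylglycine. Dimethylglycine and then sarcosine lose their remaining methyl groups to tetrahydrofolate and leave glycine. Glycine is broken down by the mitochondrial glycine cleavage system or exchanged with serine, and the carbon units carried by folate serve purine, thymidylate and methionine synthesis. Sarcosine is also made when glycine N-methyltransferase disposes of S-adenosylmethionine, and a peroxisomal oxidase, the product of *Pipox*, acts on both sarcosine and the lysine product pipecolate.

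The fibrotic libraries held 17815568 to 20352675 counts and the FLO libraries 18275320 to 24814263. Levels are given in CPM, read counts brought to a common library size after scaling by the trimmed mean of M values (TMM). A mean is given ± SD over the 6 livers of a group. The hepatocyte markers *Alb*, *Ttr* and *Hnf4a* were abundant in all libraries, and the 10 hepatocyte markers summed to 68382 to 111698 CPM in fibrotic and 97967 to 109939 CPM in FLO livers. Of these 10 markers, 2 were called higher and 2 lower. Over all tested genes 15.9% were called higher and 14.0% lower, which holds beside each marker count here. Of 7 cholangiocyte markers 5 were called higher (summed level 84.2 to 285 against 48.0 to 90.4 CPM), and of 8 macrophage and Kupffer cell markers 7 (293 to 612 against 240.3 to 269 CPM). Stellate cell markers (255 to 459 against 242 to 373 CPM) and endothelial markers (118 to 163 against 164 to 189 CPM) had 1 of 8 called higher and 1 of 6 called lower. The stellate marker called was *Lrat* (log2 fold change 0.72, edgeR adjusted p = 0.00958). The collagen genes *Col1a1* (-0.22, edgeR adjusted p = 0.611) and *Col3a1* (-0.03, adjusted p = 0.925) were not called. The study reports no *Col1a1* difference for ob/ob mice given ethionine, and the group name fibrotic is that of the sample titles. No defining marker in these 5 lists was at 0 in all libraries. Of 6 kidney tubule markers, *Slc5a2* and *Kap* were at 0 in every library and no other marker exceeded 12 counts in any single library. The share of mitochondrial genes was 4.93 to 7.88% of all fibrotic counts and 7.30 to 10.2% of all FLO counts. The part of cell composition and of this share in the results below was not tested, and fewer hepatocytes cannot be told apart from less RNA per hepatocyte in bulk liver.

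The deepest difference was in *Pipox* (ENSMUSG00000017453, 8 exons on chromosome 11). The fibrotic libraries held 10.02, 11.8 and 13.7 CPM (lowest, median and highest of 6), and the FLO libraries 178, 186 and 223 CPM. In raw counts this was 199 to 284 against 3027 to 5220. Every fibrotic liver thus lay more than an order of magnitude below every FLO liver. The log2 fold change was -4.02 (SE 0.10), a 16.2-fold lower level, and ranked 31st from the lowest of the 13416 genes tested. Without FLO replicate 3 it was -3.97.

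*Sardh* (ENSMUSG00000009614), which encodes the mitochondrial sarcosine dehydrogenase, was the most abundant of the 10 genes in FLO livers. Its level was 416, 514 and 745 CPM (lowest, median and highest) in fibrotic and 1315, 1519 and 1848 CPM in FLO livers. The groups did not overlap, and the log2 fold change was -1.51 (SE 0.15), or -1.45 without FLO replicate 3. The RNAs of both enzymes that act on sarcosine were lower, with the larger log2 fold change for the peroxisomal oxidase.

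*Dmgdh* (ENSMUSG00000042102) encodes dimethylglycine dehydrogenase, the mitochondrial flavoprotein that forms sarcosine and is related in sequence to *Sardh*. Its level was 536, 627 and 947 CPM in fibrotic against 564, 654 and 816 CPM in FLO livers. The groups overlapped fully, with 3 of 6 fibrotic libraries on each side of the FLO median, and the log2 fold change was 0.07 (SE 0.16). Without fibrotic replicate 2 or 3 it lay at -0.02 or -0.03, and without FLO replicate 3 at 0.14, so it has no stable sign.

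Upstream in the path, *Aldh7a1* (ENSMUSG00000053644) encodes antiquitin, an aldehyde dehydrogenase that oxidizes betaine aldehyde and also the semialdehyde of lysine breakdown. It was measured at 150, 164 and 205 CPM in fibrotic and 660, 690 and 802 CPM in FLO livers. No fibrotic library came near the FLO range, and the log2 fold change was -2.02 (SE 0.10) with and without FLO replicate 3. *Chdh* (ENSMUSG00000015970), the choline dehydrogenase of the inner mitochondrial membrane, was at 118, 184 and 234 CPM in fibrotic and 192, 246 and 317 CPM in FLO livers. All 6 fibrotic libraries lay below the FLO median but the ranges overlapped, and the log2 fold change was -0.43 (SE 0.16), or -0.44 without FLO replicate 3.

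*Gldc* (ENSMUSG00000024827), the decarboxylase of the glycine cleavage system, was at 198, 261 and 356 CPM in fibrotic and 160, 214 and 289 CPM in FLO livers, a log2 fold change of 0.26 (SE 0.17). *Amt* (ENSMUSG00000032607), its aminomethyltransferase, was at 45.2, 57.6 and 68.5 CPM in fibrotic and 42.4, 47.9 and 67.3 CPM in FLO livers, a log2 fold change of 0.12 (SE 0.13). For both genes 4 of 6 fibrotic libraries lay above the FLO median and the ranges overlapped widely. Single libraries moved these small values. *Gldc* was at 0.35 without FLO replicate 3 and 0.15 without fibrotic replicate 2. *Amt* was at 0.21 without FLO replicate 3 and 0.19 without fibrotic replicate 4, and at 0.07 to 0.08 without fibrotic replicate 3 or FLO replicate 5 or 6.

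The serine hydroxymethyltransferases interconvert serine and glycine, *Shmt1* in the cytosol and *Shmt2* in mitochondria. *Shmt1* (ENSMUSG00000020534) was at 43.7, 86.7 and 109 CPM in fibrotic and 143, 153 and 252 CPM in FLO livers. The groups did not overlap, and the log2 fold change was -1.03 (SE 0.20), or -0.89 without FLO replicate 3, which was the highest library, and likewise -0.89 without fibrotic replicate 4, which was the lowest.

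*Shmt2* (ENSMUSG00000025403) was at 175, 202 and 243 CPM in fibrotic and 237, 251 and 285 CPM in FLO livers. Here the groups overlapped by a single library on each side, and the log2 fold change was -0.30 (SE 0.09), or -0.31 without FLO replicate 3, under the fold limit of the call rule. *Mthfd1* (ENSMUSG00000021048), the trifunctional cytosolic enzyme that interconverts formyl-, methenyl- and methylene-tetrahydrofolate, was at 176, 197 and 240.1 CPM in fibrotic and 184, 223 and 304 CPM in FLO livers. FLO replicates 1 and 3 lay above every fibrotic library and fibrotic replicates 4 and 5 below every FLO library, while the others overlapped. The log2 fold change was -0.19 (SE 0.13), with -0.14 without FLO replicate 3 and -0.11 without FLO replicate 1.

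The edgeR test across all genes called a difference where the adjusted p did not exceed 0.01 and the log2 fold change was beyond 0.5 in either direction. By this rule 4 of the 10 genes were called lower (*Pipox*, *Aldh7a1*, *Sardh* and *Shmt1*) and 0 higher, beside 14.0% of all tested genes called lower and 15.9% called higher. The same 4 genes had groups that did not overlap, beside 30.4% of tested genes with non-overlapping groups, 15.1% with all fibrotic below all FLO libraries and 15.3% with the reverse. The choice of the genes used this contrast, so nothing is read from these shares. The median log2 fold change of the 10 was -0.36, and that of all tested genes 0.03.

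**Figure D1:**
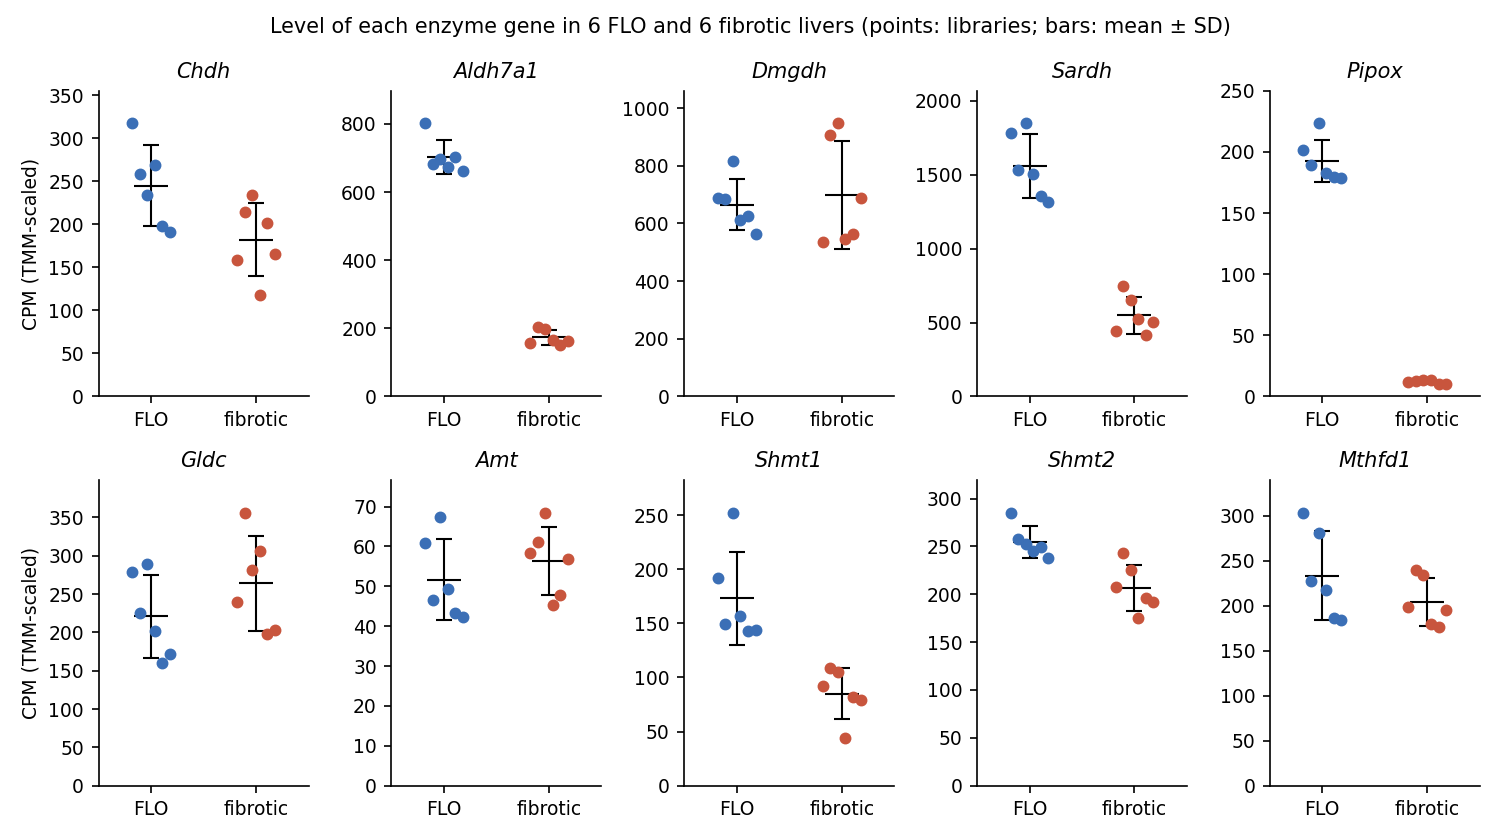
Level of each of the 10 genes in CPM (TMM-scaled, linear axis from 0) in the 6 FLO (blue) and 6 fibrotic (red) livers, with 1 point per library and the mean ± SD in black. *Pipox*, *Aldh7a1*, *Sardh* and *Shmt1* show no overlap between the groups, while the other 6 genes overlap.

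Ratios within a library do not depend on library scaling, and levels of different genes are set against each other per kb of the longest annotated transcript. The *Sardh* to *Dmgdh* ratio was 1.44, 1.52 and 1.71 (lowest, median and highest) in FLO and 0.457, 0.516 and 0.634 in fibrotic livers. *Sardh* thus exceeded *Dmgdh* in all 6 FLO livers and lay below it in all 6 fibrotic livers. Within the FLO group this ratio varied little, although *Sardh* itself ran from 1315 to 1848 CPM. Per kb of coding sequence the ratio was higher, at 0.653 to 0.906 in fibrotic and 2.06 to 2.44 in FLO livers, on the same sides of 1.

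The ratio of *Pipox* to *Dmgdh* was 0.434 in the median FLO and 0.0247 in the median fibrotic liver. The *Aldh7a1* to *Chdh* ratio was 3.44 to 4.87 in FLO and 1.02 to 1.94 in fibrotic livers. Neither ratio overlapped between groups.

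Cytosolic against mitochondrial serine hydroxymethyltransferase, the *Shmt1* to *Shmt2* ratio, was 0.461, 0.499 and 0.801 in FLO and 0.200, 0.344 and 0.372 in fibrotic livers. FLO replicate 3 was the highest library and fibrotic replicate 4 the lowest. The *Gldc* to *Amt* ratio within the glycine cleavage system overlapped between the groups, at 2.04, 2.32 and 2.68 in FLO and 1.97, 2.28 and 3.74 in fibrotic livers.

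**Figure D2:**
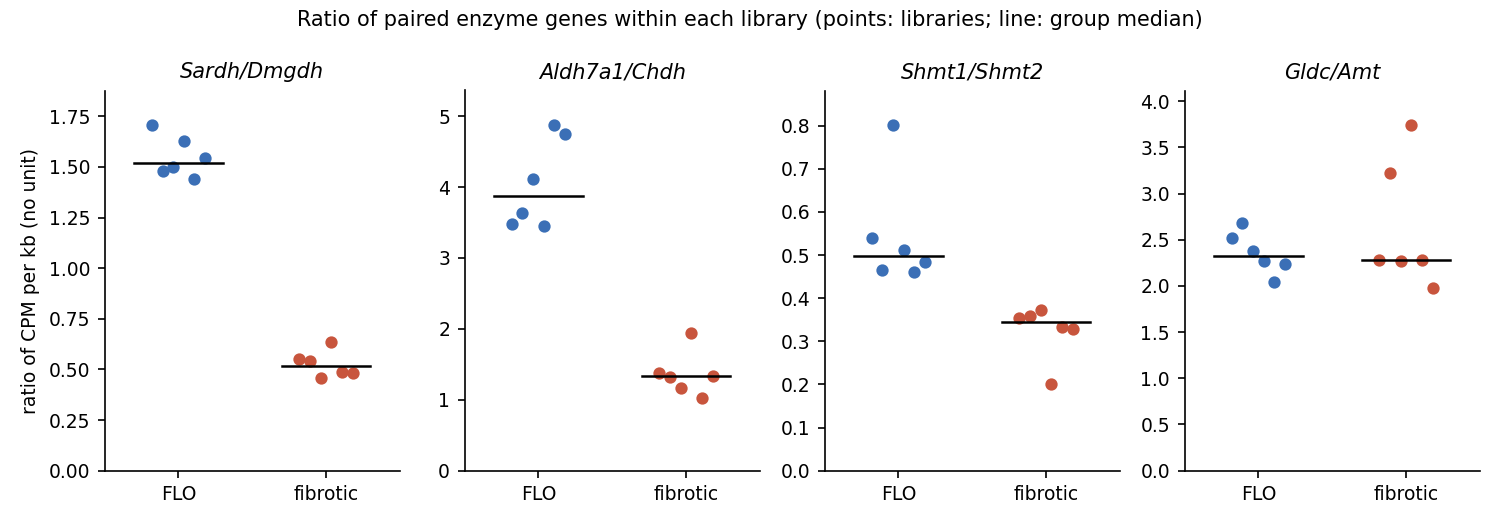
Ratio of CPM per kb between paired genes within each library (linear axes from 0, no unit) for the 6 FLO (blue) and 6 fibrotic (red) livers, with group medians as lines. The *Sardh* to *Dmgdh* ratio sits between 1.44 and 1.71 in FLO and between 0.457 and 0.634 in fibrotic livers, while the *Gldc* to *Amt* ratio overlaps.

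Per kb of transcript, *Sardh* was the highest of the 10 in FLO livers at 344 ± 48.0 CPM per kb (SD, n = 6), followed by *Dmgdh* (222 ± 29.4) and *Aldh7a1* (170.1 ± 12.3), whose ranges overlapped. *Shmt2* (111 ± 7.25), *Pipox* (96.3 ± 8.72), *Mthfd1* (72.1 ± 15.2), *Shmt1* (60.5 ± 15.0), *Gldc* (58.7 ± 14.3) and *Chdh* (43.0 ± 8.30) formed a series in which each gene overlapped the next. *Amt* was lowest (24.8 ± 4.89). *Aldh7a1* did not overlap *Shmt2*, nor *Chdh* overlap *Amt*. In fibrotic livers *Dmgdh* was highest at 233 ± 62.1 CPM per kb (SD, n = 6), above *Sardh* (121 ± 28.1) without overlap, and *Pipox* was lowest at 5.94 ± 0.749, below *Amt* (27.0 ± 4.13) without overlap. *Pipox* moved from the fifth to the lowest place. The order depends on the transcript taken: per kb of coding sequence *Chdh* stood sixth in FLO livers, *Aldh7a1* stood above *Dmgdh*, and the fibrotic ranges of *Dmgdh* and *Sardh* overlapped.

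Deviations of log2 CPM from the group mean were compared over the 12 libraries, in which all genes of a library share its scaling and RNA. The 45 pairs among the 10 genes had a median Pearson r of 0.69. The highest r was 0.91 between *Amt* and *Mthfd1*, followed by 0.89 between *Sardh* and *Aldh7a1* and 0.88 between *Sardh* and *Dmgdh*. The deviations of *Sardh* and *Dmgdh* thus went together over the 12 libraries, while their group means parted. No r for random pairs of genes stands beside this value, so no link particular to *Sardh* and *Dmgdh* is read from it.

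*Pipox* had the lowest median r with the rest (0.58), from 0.10 with *Chdh* and 0.23 with *Shmt1* to 0.83 with *Gldc*. Against the summed hepatocyte markers, r was 0.88 for *Shmt2*, 0.80 for *Shmt1* and *Chdh*, 0.31 for *Gldc* and 0.11 for *Pipox*. Among 8292 other genes whose mean log2 CPM reached 3, those closest to *Pipox* by this measure were *Hnrnpr* (r = 0.91), *Ahcyl1* (0.91), *Timm21* (0.86), *Aasdhppt* (0.85) and *Mindy1* (0.83). Their log2 fold changes between groups ran from -0.51 to 0.22, far from the -4.02 of *Pipox*. These genes are the top of a ranking of 8292 genes over only 12 libraries. How high r would run by chance in such a ranking was not tested, so no link of these genes to *Pipox* is read from it.

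**Figure D3:**
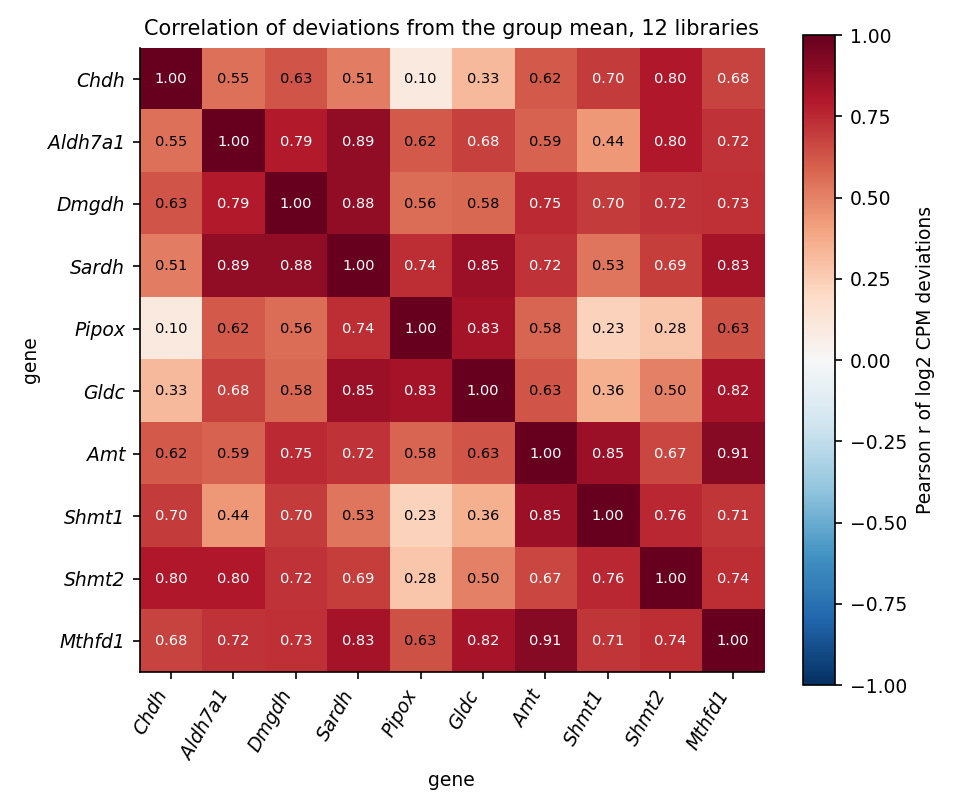
Pearson r between the 10 genes for deviations of log2 CPM from the group mean over 12 libraries, on a colour scale from -1 (blue) to 1 (red). The *Pipox* row holds the palest cells, down to 0.10 with *Chdh*, and *Amt* with *Mthfd1* the highest value off the diagonal, 0.91.

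The 150 bases before the RefSeq transcription start (GRCm38.p6, 5′ to 3′ on the strand of the gene) are shown for the 3 genes with non-overlapping groups that are printed here and for *Dmgdh* and *Gldc*, whose groups overlapped, so that the windows can be set side by side. Capitals mark letter matches on either strand to the GC box (GGGCGG) or the CCAAT box (CCAAT), overlapping matches included.
Pipox (chr11:77893873-77894022, minus strand): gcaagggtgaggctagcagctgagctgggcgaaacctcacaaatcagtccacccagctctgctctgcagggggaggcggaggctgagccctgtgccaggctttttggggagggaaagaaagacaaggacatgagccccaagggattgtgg
Sardh (chr2:27247304-27247453, minus strand): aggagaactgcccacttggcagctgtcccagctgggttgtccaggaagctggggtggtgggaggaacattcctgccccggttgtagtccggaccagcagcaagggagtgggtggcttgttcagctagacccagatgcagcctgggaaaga
Shmt1 (chr11:60811266-60811415, minus strand): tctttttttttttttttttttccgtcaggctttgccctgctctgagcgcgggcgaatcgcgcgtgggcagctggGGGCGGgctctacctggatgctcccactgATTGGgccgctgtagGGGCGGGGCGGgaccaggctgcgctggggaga
Dmgdh (chr13:93674286-93674435, plus strand): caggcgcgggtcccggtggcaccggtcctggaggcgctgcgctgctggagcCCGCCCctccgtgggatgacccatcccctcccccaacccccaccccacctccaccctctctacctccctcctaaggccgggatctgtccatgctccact
Gldc (chr19:30175442-30175591, minus strand): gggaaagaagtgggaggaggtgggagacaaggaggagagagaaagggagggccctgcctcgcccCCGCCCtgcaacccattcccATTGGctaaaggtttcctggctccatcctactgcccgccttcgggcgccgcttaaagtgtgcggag
Over the 250 bases before the start, *Pipox* and *Sardh* held 3 CpG dinucleotides each and no match to either box, *Shmt1* 13 CpG with both boxes, *Dmgdh* 16 CpG with a GC box, and *Gldc* 8 CpG with both boxes. The median over all 32851 promoters was 6 CpG, and 32.7% of them held a GC box and 33.8% a CCAAT box. The genes with lower RNA thus had windows of both kinds.

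Among the 11 windows of 9 of the genes, which include 3 starts of *Chdh*, 6 held a GC box and 4 a CCAAT box. None held a TATA box (TATAAA, 12.4% of all promoters), an E-box (CACGTG, 6.02%), a cAMP response element (TGACGTCA, 1.55%), an amino acid response element (TGATGNAA, 3.45%), an antioxidant response element (TGACNNNGC, 10.2%) or an HNF4 site (CAAAGTCCA, 0.384%), searched on both strands. GENCODE M21 places its first start 224 bases upstream of the RefSeq start for *Pipox*, 453 for *Shmt1* and 1034 for *Sardh*. The windows are thus not the sole candidate promoters. The first 20 bases transcribed from the RefSeq start were found in an M21 transcript for *Dmgdh* and *Shmt1*. They were not found for *Pipox*, *Sardh* or *Gldc*.

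To see which other steps differed, 65 further genes in 8 lists were read from the fit across all genes, of which 60 passed the low-count filter. The edgeR test called 14 of these lower and 5 higher, or 19 of 60, beside 29.9% of all tested genes called in either direction. By direction, 14.0% of all tested genes were called lower and 15.9% higher. The counts per list below are small and stand beside these same shares, with no test of a list. Their median log2 fold change was -0.21, against 0.03 over all tested genes.

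Of 8 choline and betaine genes, 2 fell and 1 rose. *Gnmt*, the glycine N-methyltransferase that makes sarcosine, fell to 1215 ± 430 CPM in fibrotic livers, where FLO livers held 2146 ± 523 CPM (log2 fold change -0.82, SE 0.23, edgeR adjusted p = 0.00719). The choline transporter gene *Slc44a1* fell (-0.53, adjusted p = 0.00614), and *Bhmt2*, a betaine-homocysteine methyltransferase relative, rose (0.58, adjusted p = 0.00468). All 3 calls were near the threshold and depended on single libraries. *Gnmt* was not called without fibrotic replicate 1, 4 or 6 or FLO replicate 1, 3, 5 or 6, where its adjusted p ran from 0.0104 to 0.0205. The *Slc44a1* call was lost without any of fibrotic replicates 1, 3, 4, 5 and 6 and FLO replicates 1, 2 and 3 (adjusted p 0.0125 to 0.0168). That of *Bhmt2* was lost without fibrotic replicate 2 or 3 or FLO replicate 2, 4, 5 or 6 (adjusted p 0.0111 to 0.0129). *Bhmt* itself, whose sequence is close to that of *Bhmt2* so that reads could be shared, was at 7325 ± 1742 CPM in fibrotic and 5765 ± 947 CPM in FLO livers (log2 fold change 0.35, adjusted p = 0.0824).

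None of the 3 electron transfer flavoprotein genes, which take electrons from *Dmgdh* and *Sardh*, passed the test, the largest value being that of *Etfb* (-0.28, adjusted p = 0.0197). Of 5 partners of the glycine cleavage system, the lipoyltransferase gene *Lipt1* rose to 9.37 ± 1.13 CPM against 5.96 ± 0.852 CPM in FLO livers (0.65, SE 0.12, adjusted p = 0.000412).

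Of 12 tested folate interconversion genes 4 fell and 0 rose. *Ftcd*, which feeds carbon units from histidine into folate, fell by 0.97 on the log2 scale (edgeR adjusted p = 0.000281). *Aldh1l1*, which oxidizes formyl-tetrahydrofolate, fell from 1801 ± 424 to 1016 ± 241 CPM (-0.83, adjusted p = 0.000986), and *Mthfs* fell by 0.64 (adjusted p = 0.000148). For each of these 3 genes all fibrotic libraries lay below all FLO libraries, as for 15.1% of all tested genes.

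The mitochondrial *Mthfd2*, named after its value was seen, was at 2.90 ± 0.996 CPM in fibrotic and 1.65 ± 0.432 CPM in FLO livers and was not called (log2 fold change 0.82, edgeR adjusted p = 0.012), although it was called without fibrotic replicate 2 or 3 or FLO replicate 6 (adjusted p 0.00401 to 0.00699). Over the 19 alternative fits described below, the adjusted p of *Mthfd2* reached 0.0337. *Aldh1l2* did not pass the filter, with 33 counts in all. Of 6 tested folate transport and storage genes, *Ggh*, the lysosomal hydrolase that shortens folate polyglutamates, rose to 16.6 ± 2.05 CPM against 9.83 ± 1.55 CPM in FLO livers (0.76, adjusted p = 5.77e-05), and the other 5 were not called. *Folr1* had 10 counts in all and was not tested.

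Of 12 tested serine and glycine genes 3 fell and 0 rose. *Agxt2*, a mitochondrial aminotransferase that uses glyoxylate, fell to 34.9 ± 10.3 CPM against 203 ± 9.41 CPM in FLO livers (log2 fold change -2.54, SE 0.15, edgeR adjusted p = 8.51e-09). The glycine N-acyltransferase gene *Glyat* (-0.74, adjusted p = 7.81e-06) and *Agxt*, which makes glycine from glyoxylate (-0.86, adjusted p = 0.00177), fell as well. *Sds*, serine dehydratase, and *Psat1*, of serine synthesis, are named after their values were seen. *Sds* was at 87.2 to 333 CPM in fibrotic and 332 to 441 CPM in FLO livers, a log2 fold change of -1.01 that was not called (edgeR adjusted p = 0.0172), although it was called without fibrotic replicate 2 or 3 (adjusted p 0.00429 and 0.00722). Over the 19 alternative fits the adjusted p of *Sds* reached 0.0581. *Psat1* was at 2.28 ± 1.31 CPM in fibrotic and 1.02 ± 0.467 CPM in FLO livers, with 11 to 80 counts per library and overlapping groups. Its log2 fold change of 1.17 was not called (edgeR adjusted p = 0.0222). *Psat1* was called without fibrotic replicate 6 (adjusted p = 0.00852), while over the 19 alternative fits its adjusted p reached 0.0755. *Phgdh*, the first enzyme of serine synthesis, had 75 counts over all libraries and was not tested, and *Tdh* had none.

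*Aldh7a1* and *Pipox* also act in lysine breakdown. Of 6 genes of that path 2 fell, *Gcdh* (glutaryl-CoA dehydrogenase) from 743 ± 42.3 to 344 ± 64.4 CPM (-1.11, SE 0.12, edgeR adjusted p = 1.65e-06) and the aminotransferase *Aadat* (-1.10, adjusted p = 5.02e-06). *Dlst*, a succinyltransferase shared with the citric acid cycle, rose (0.57, adjusted p = 0.000131). The first enzyme of the saccharopine route, *Aass*, is named after its value was seen. It was not called (-0.50, edgeR adjusted p = 0.0189), although it was called without fibrotic replicate 2 (adjusted p = 0.00326). Over the 19 alternative fits its adjusted p reached 0.0453.

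Among 8 tested genes of peroxisomal oxidation and import, 3 fell and 1 rose. The urate oxidase gene *Uox* fell to 189 ± 141 CPM against 1996 ± 118 CPM in FLO livers (log2 fold change -3.40, SE 0.45, edgeR adjusted p = 4.15e-05). The D-aspartate oxidase gene *Ddo* fell by 0.67 on the log2 scale (adjusted p = 0.000551). The import gene *Pex13* rose (0.66, adjusted p = 4.34e-06), while *Pex5*, the receptor that carries such oxidases into the peroxisome, was at 209 against 217 CPM (adjusted p = 0.659). *Dao* had no counts. Within this list *Uox* spread from 44.7 to 405 CPM among fibrotic livers, a wider range than the 10.02 to 13.7 CPM of *Pipox*.

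**Figure D4:**
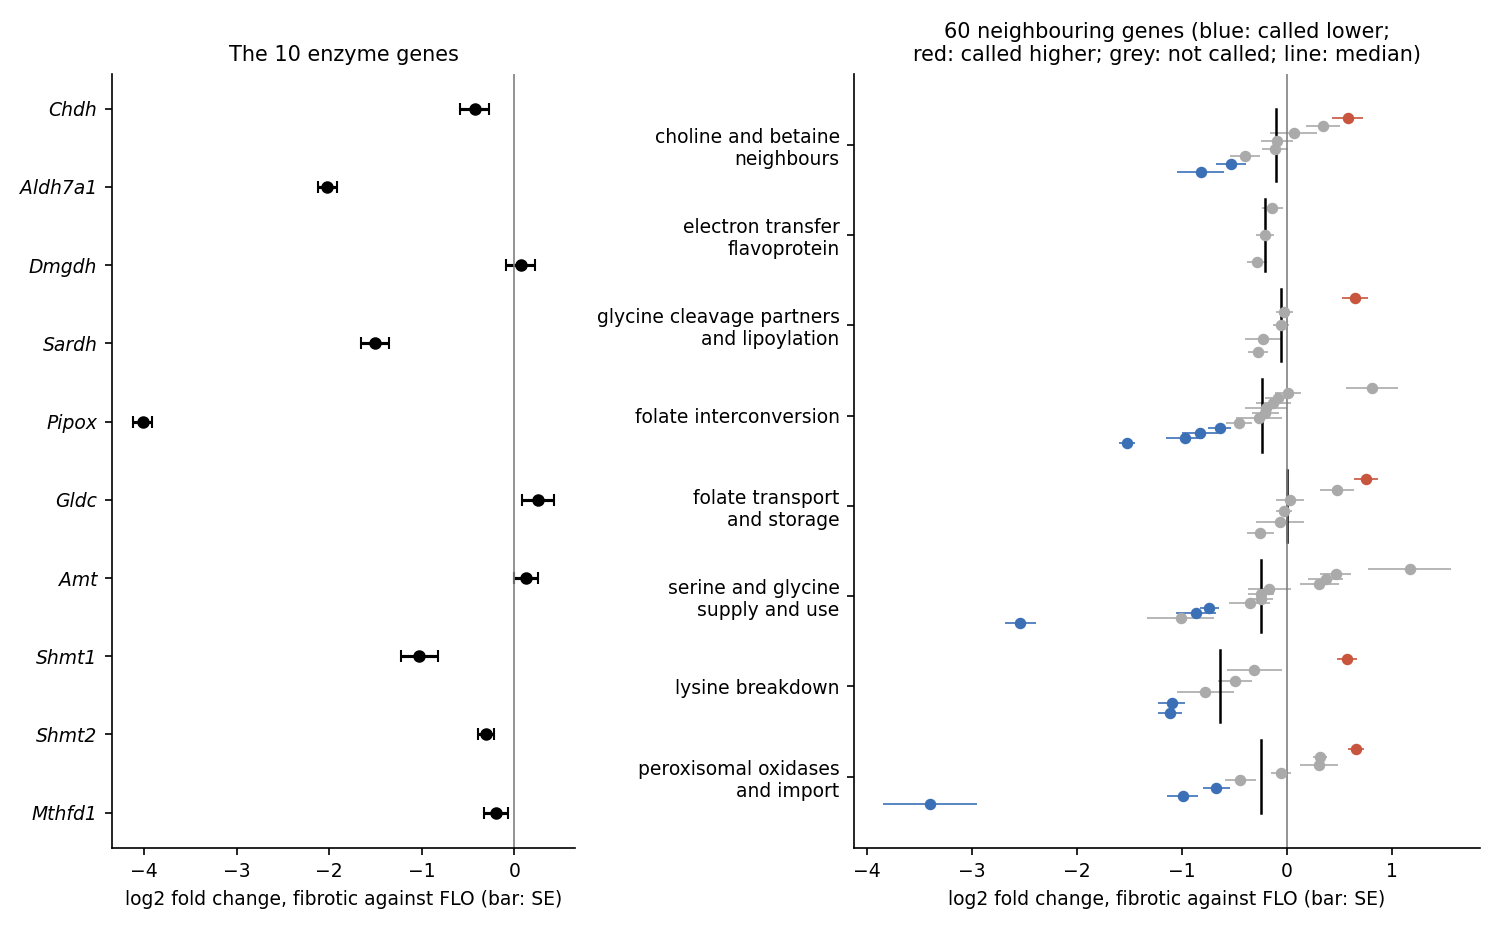
Log2 fold change (fibrotic against FLO) with its SE for the 10 enzyme genes (left, described without a test) and for the 60 tested neighbouring genes by list (right), coloured by the edgeR call, with the list median as a black line. *Pipox* (-4.02), *Uox* (-3.40) and *Agxt2* (-2.54) lie farthest to the left, and 5 neighbouring genes were called higher.

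The strand setting of the counting is not given in the sources used here, so reads of opposite-strand genes that share exonic bases cannot be told apart. *Smcr8* shares 184 exonic bases with *Shmt1* and was at a median of 41.0 CPM in fibrotic and 27.7 CPM in FLO livers, and *Phax* shares 300 with *Aldh7a1*, at 25.1 against 14.1 CPM. Both medians were higher in fibrotic livers, where *Shmt1* and *Aldh7a1* were lower. *Cacna1d* (with *Chdh*) and *Ndufa4l2* (with *Shmt2*) had medians of at most 4.73 CPM, and *Sardhos* had no counts. No other annotated gene overlapped *Pipox* or *Amt*.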

How the data were processed

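RNA of 12 livers (6 per group, grouped by sample title) was sequenced. The authors deposited 1 table of raw counts per Ensembl gene, without normalization. Processing notes name mm10 and STAR 2.7.3a. The study's methods name PISCES and a stranded mRNA kit. The annotation release and strand setting are not given in the sources used here, so no coordinates come from the table. Symbols matched 51745 of 56205 identifiers. The Tf marker was read as Trf.

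Counts were tested with edgeR 4.0.16 in R 4.3.3 (quasi-likelihood, robust, TMM, filterByExpr, Benjamini-Hochberg over all tested genes). The thresholds follow the study's methods. SE is the absolute log2 fold change divided by the square root of F. CPM uses TMM-scaled library sizes, and log2 CPM a prior count of 2. Transcript lengths and exons came from GENCODE M21 (GRCm38), upstream sequences from RefSeq (GRCm38.p6), which matched 9 of the 10 genes as used here. The fit was tested on simulated data. Libraries of a group differed by more than sampling noise (smallest chi-square per degree of freedom 10.9).

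Genes and lists were chosen with earlier results of these data known. Named were the 10 genes, the called genes of each list (or its largest change where none was called), *Xist* and the 5 genes most like *Pipox*. *Bhmt*, *Mthfd2*, *Sds*, *Psat1*, *Aass* and *Pex5* fall outside this rule and were named after their values were seen. Alternatives were RLE, TMM without the 50 most abundant genes, no filter, at least 10 counts in every library, DESeq2 1.42.0, limma-voom 3.58.1, a replicate block, another threshold, coding length, Spearman rho and leaving out each library. The *Aldh7a1* sequence and 2 of the called genes are not reported here.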

Additional observations from a re-analysis of the deposited data

Results flagged for a closer look

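For each of the 10 genes, the distance in log2 CPM from the highest or lowest liver of a group to the next one was divided by the range of the 6 livers. Of these 20 sets of values, 2 passed Dixon's 95% limit, where chance flags about 1 in 20. *Aldh7a1* in FLO replicate 1 stood above the other FLO libraries (ratio 0.681), at 802 CPM. *Shmt1* in fibrotic replicate 4 stood below the other fibrotic libraries (ratio 0.649), at 43.7 CPM.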

How the results depend on the processing

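Over 19 alternative fits, including those without 1 library, 4 of the 10 genes were called lower each time, and 7 or 8 had a log2 fold change below 0. Leaving out single libraries moved *Pipox* between -4.06 and -3.97, *Aldh7a1* between -2.07 and -1.98, *Sardh* between -1.61 and -1.43 and *Shmt1* between -1.11 and -0.89, and *Dmgdh* between -0.03 and 0.14. The number of all genes called ran from 3798 to 4093 without single libraries (4012 with all), and of neighbouring genes from 12 to 18 lower and 4 to 6 higher. At an adjusted p of 0.05 or less with no fold limit, 6994 genes were called, and 22 neighbouring genes lower and 10 higher. Without the low-count filter *Gnmt* was not called (adjusted p = 0.0215).

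Over all tested genes, replicate numbers shared between the groups showed no pairing of the mice. Correlations of same-numbered deviations ran from -0.16 to 0.10, and 0 of 12 libraries correlated best with their own number. Among the 10 genes, a replicate block lowered the SE of some, such as *Shmt1* (0.155 against 0.201) and *Gldc* (0.125 against 0.175). It raised that of *Chdh* (0.170 against 0.160), *Aldh7a1* and *Shmt2*. Whether same-numbered mice shared their handling was not tested. With the replicate block, 3780 genes were called, again 4 of the 10 genes lower, with 15 neighbouring genes lower and 5 higher, the further lower gene being *Sds* (log2 fold change -1.22, adjusted p = 0.00582). *Sds* was also called by limma-voom (adjusted p = 0.00457), and *Mthfd2* (0.00723) and *Aass* (0.00853) by DESeq2. The highest to lowest level per kb among the 10 genes in FLO livers was 13.9-fold, and 13.2-fold per kb of coding sequence. The median r within groups was 0.69, 0.67 as Spearman rho and 0.72 without FLO replicate 3.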
